A study of Drosophila melanogaster with 54 samples.

Results

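The genes described here encode mitochondrial ribosomal proteins. They were chosen by symbol alone, as the protein-coding genes of the Drosophila melanogaster annotation whose symbol starts with mRpL or mRpS followed by a digit, and 73 of the 13945 protein-coding genes on the 6 chromosome arms met that rule. They lie on 2L (12 members), 2R (12), 3L (17), 3R (21) and X (11). By symbol, 47 belong to the large subunit (mRpL) and 26 to the small subunit (mRpS) of the mitochondrial ribosome. A pair of mitochondrial ribosomal protein genes with older names, tko (the S12 protein) and bonsai (the S15 protein), fall outside the rule and are given separately.

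The mitochondrial ribosome translates the few proteins that the mitochondrial genome still encodes, which are core subunits of the respiratory chain and the ATP synthase. Its RNAs come from the mitochondrial genome, but all of its proteins are encoded in the nucleus, made in the cytosol and imported. The genes are active in nearly every cell and are counted among housekeeping genes. Hox proteins are homeodomain transcription factors that give body segments their identity, and Homothorax (Hth) and Extradenticle (Exd) are homeodomain proteins that bind DNA together with them.

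The bound regions come from ChIP-seq of Kc167 cells, a line derived from Drosophila embryos, in 18 groups with 2 ChIP libraries each. All groups were transiently transfected cells in which a metallothionein promoter was induced with 1 mM CuSO4 for 4 h. The cells of every sample were fixed with 1% formaldehyde for 10 min. Those whose GFP level lay within the same limits were then collected, and an antibody to GFP was used for the ChIP. The 8 Hox proteins Labial (Lab), Proboscipedia (Pb), Deformed (Dfd), Sex combs reduced (Scr), Antennapedia (Antp), Ultrabithorax (Ubx), Abdominal-A (Abd-A) and Abdominal-B (Abd-B) were each expressed as GFP fusions alone or together with Hth, and the other 2 groups were Hth alone and Exd with Hth. In the last group GFP was on Exd. The study states that Kc167 cells make Exd themselves and that Hth brings it from the cytoplasm into the nucleus. The groups with Hth, Hth alone included, are therefore not without Exd. The deposited lists give 1 set of bound regions per group, found in both libraries at a false discovery threshold (q) of 0.01 or, in a stricter list, 1e-10, with no height or count. There is therefore no replicate error for any value below, the 8 proteins are the units over which a spread is given, and the proteins were expressed from plasmids rather than from their own genes. The lists held between 2880 regions (Antp+Hth) and 12050 regions (Dfd+Hth) at q 0.01. The lists do not show depth, which the study reports per library. The samples of Ubx, Abd-A and Abd-B (both conditions) are listed on another sequencing platform than those of the other proteins.

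The members are short genes that sit close to other genes. Their median length was 909 bp (390 to 13391 bp) against 2166 bp over all protein-coding genes, 62 of the 73 lay in the 3 shortest length deciles, and 67 had 1 annotated start site. A start site of another protein-coding gene lay within 500 bp of the member's own in 54 of 73 members (74.0%) against 30.9% of all protein-coding genes. In 52 of these 54 the neighbour ran in the opposite direction, away from the member, so that the pair shared the stretch between them. The other 2 were mRpL13 and mRpL53, which lie inside another gene and share a start site with CG10602 and with CG33155.

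The promoter sequences of 4 genes show what such a stretch looks like at members that were bound in most groups. They are given 5′ to 3′ on the member's strand from the RefSeq Release 6 genome, ending at the base before the start site and beginning, at most 150 bases away, where an exon of another gene ends. The stretches for mRpL11, mRpL47 and mRpL2 thus run from the neighbour's start site (HtrA2, CG8176 and FoxK) to the member's own. Capitals mark the one match to the motifs searched below, a Hox core motif in mRpL47.
mRpL11, chr3R:14511713-14511837, plus strand: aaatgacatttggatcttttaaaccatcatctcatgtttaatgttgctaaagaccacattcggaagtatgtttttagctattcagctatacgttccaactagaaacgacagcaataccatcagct
mRpL13, chr2L:18859249-18859398, minus strand: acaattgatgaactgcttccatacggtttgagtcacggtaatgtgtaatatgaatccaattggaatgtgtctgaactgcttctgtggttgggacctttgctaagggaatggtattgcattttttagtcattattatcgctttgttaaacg
mRpL47, chr3R:9515909-9516006, minus strand: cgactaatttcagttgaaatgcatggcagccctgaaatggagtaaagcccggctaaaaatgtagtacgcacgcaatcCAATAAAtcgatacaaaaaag
mRpL2, chr3L:11120784-11120846, plus strand: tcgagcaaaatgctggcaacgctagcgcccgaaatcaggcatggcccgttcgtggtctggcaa

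A bound region within 500 bp of a start site was found, in at least 1 of the 8 Hox groups without Hth, at 45 of 73 members (61.6%, 95% Wilson interval 50.2 to 71.9%). The same held for 44% of all protein-coding genes. It held for 27.4% of other genes of like length, a share standardised to the members' length deciles. With Hth the count was 52 of 73 members (71.2%, 60.0 to 80.3%), against 47.8% of all genes and 31.3% of genes of like length. These intervals cover counting error only, and genes that share a start region are not independent.

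The groups differed widely in how many members they held, and the order broadly followed the size of the lists. Without Hth, Lab held 6 of 73 members at the start site (8.22%) against 9.28% of all protein-coding genes. Pb held 13 (17.8%) against 15.7%, Antp 10 (13.7%) against 14.7%, and Ubx 13 (17.8%) against 15.7%. Abd-A held 17 (23.3%) against 22.8%. In these 5 groups the members' share was close to that of all genes, which lay inside its Wilson interval. Dfd held 28 members (38.4%) against 31.5% of all genes, also inside the interval. Scr held 31 (42.5%, interval 31.8 to 53.9%) against 29.7%, and Abd-B held 41 (56.2%, interval 44.8 to 67.0%) against 40.4%. For Scr and Abd-B the share of all genes thus lay below the interval.

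With Hth, Lab+Hth held 6 members (8.22%) against 9.91% of all genes, Pb+Hth 11 (15.1%) against 13.4%, and Antp+Hth 5 (6.85%) against 7.59%. Scr+Hth held 21 (28.8%) against 25.7%, Ubx+Hth 17 (23.3%) against 21.2%, and Abd-A+Hth 19 (26.0%) against 24.4%. These 6 groups again lay near the share of all genes. Dfd+Hth stood apart with 47 members (64.4%, interval 52.9 to 74.4%) against 44.3%, and Abd-B+Hth with 44 (60.3%, interval 48.8 to 70.7%) against 37.3%. Hth alone held 12 members (16.4%) against 20.6%, and Exd+Hth held 31 (42.5%) against 38.9%, both with the share of all genes inside the interval.

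Set against genes of like length, the members' share was higher in 8 of 8 Hox groups without Hth and in 8 of 8 with it. The lists overlap widely, as given below, so the 8 proteins are not independent of each other. Over the 8 proteins without Hth the mean share was 27.2% ± 16.6 (SD) for members and 11.0% ± 6.95 for genes of like length, a difference of 16.2 ± 9.81 percentage points. With Hth the means were 29.1% ± 22.0 and 11.8% ± 8.88, a difference of 17.3 ± 13.3 points. The difference was positive on each sequencing platform, with a mean of 14.4 points over the 5 proteins from Lab to Antp and 19.1 points over Ubx, Abd-A and Abd-B without Hth. No test was run on these shares, since the members were chosen with results of these data known.

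**Figure D1:**
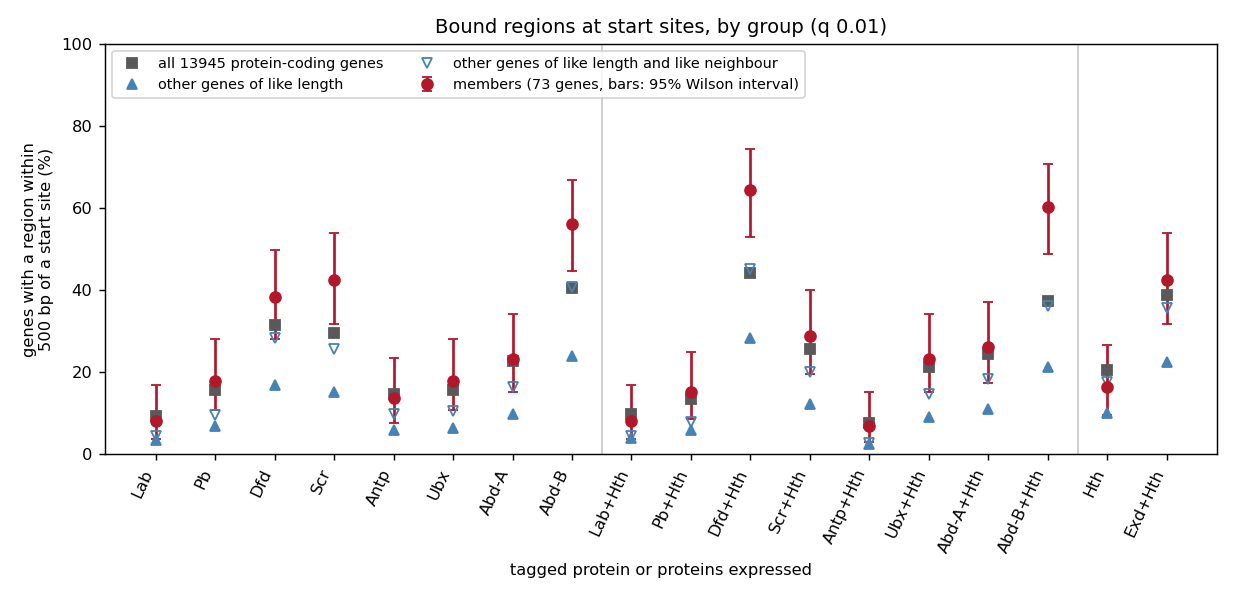
Share of genes with a bound region within 500 bp of a start site (y axis, percent, q 0.01) in each of the 18 groups (x axis), for the 73 members (red points with 95% Wilson intervals), all 13945 protein-coding genes (grey squares), other genes of like length (filled triangles) and other genes of like length and like neighbour (open triangles). The members lie above the genes of like length in all 16 Hox groups, and the share of all genes lies below the members' interval in Scr, Abd-B, Dfd+Hth and Abd-B+Hth.

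Much of the difference from genes of like length went with the neighbouring start site. Of the 54 members with a neighbour within 500 bp, 38 (70.4%, interval 57.2 to 80.9%) had a region in at least 1 Hox group without Hth, against 53.2% of other genes of like length that also had such a neighbour. Of the 19 members with no neighbour that close, 7 did (36.8%, interval 19.1 to 59.0%) against 20.2% of like genes. In the mean over the 8 proteins, members with a neighbour had a region in 33.3% ± 18.8 and like genes in 21.5% ± 15.2, with the members higher for 8 of 8 proteins. Members with no neighbour had one in 9.87% ± 11.1 and like genes in 8.79% ± 4.46, with the members higher for 2 of 8. With both length and neighbour matched, the difference over all 73 members was 9.06 ± 4.82 points without Hth and 10.4 ± 7.30 points with Hth, which compares with the 16.2 and 17.3 points for length alone. This comparison was added after the data were seen.

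Most regions covered the start site of the member, and most also covered that of another gene. Without Hth there were 167 pairs of a region and a member's start site, and 131 of the regions (78.4%) covered the start site itself. The median centre lay 116 bp upstream, with quartiles 291.5 bp and 1.5 bp upstream. A start site of another protein-coding gene was covered by 123 of the 167 (73.7%), and the centre was nearest to the member, rather than to another gene, in 63 (37.7%). With Hth the values were alike, with 180 pairs, a median centre 124 bp upstream, another start site covered in 139 (77.2%) and the centre nearest to the member in 66 (36.7%). A list of regions cannot tell which gene of such a pair, if either, a bound protein acts on.

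**Figure D2:**
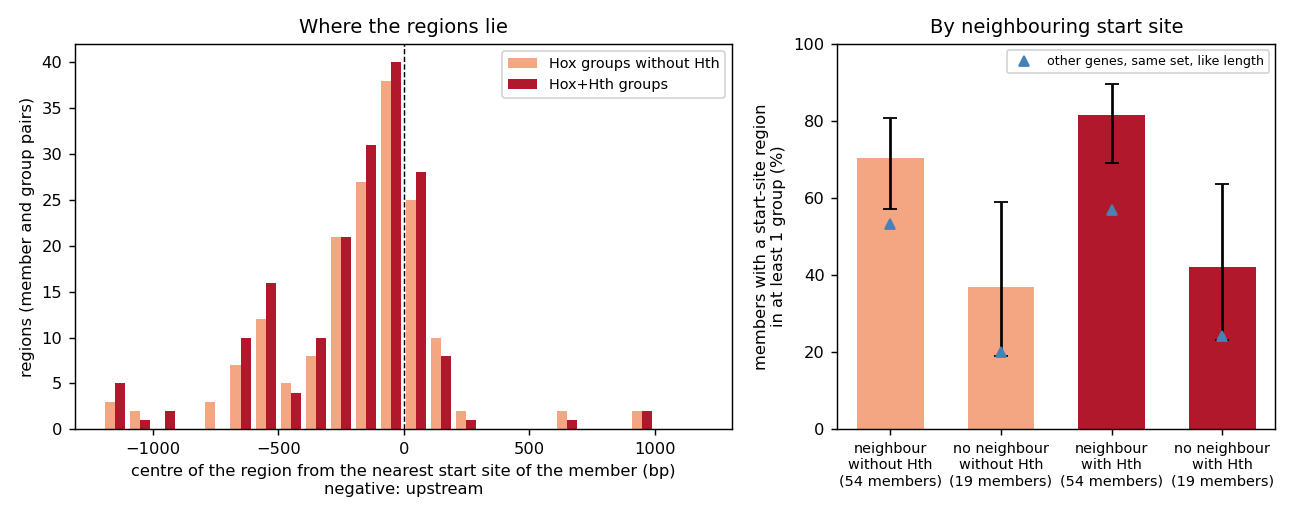
Left: number of regions (y axis) by the distance of the region's centre from the nearest start site of the member in bp (x axis, negative is upstream), for the Hox groups without Hth (light) and with Hth (dark), with medians 116 and 124 bp upstream. Right: percent of members with a start-site region in at least 1 group, with and without another start site within 500 bp (bars with 95% Wilson intervals), and the same for other genes of like length in the same set (triangles). Bars with a neighbour reach 70.4% and 81.5%, and those with none 36.8% and 42.1%.

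Widening the search to 1 kb around the gene body added few members. A region lay there in at least 1 Hox group at 50 members without Hth (68.5%) against 56.5% of all genes, and at 56 with Hth (76.7%) against 61.1%. The mean share over the 8 proteins was 30.1% ± 18.1 for members, 17.4% ± 9.07 for genes of like length and 31.3% ± 12 for all genes without Hth. With Hth these were 32.4% ± 23.7, 18.5% ± 11.4 and 32.4% ± 14.5. For whole gene bodies the members' mean was therefore no higher than that of all genes, most of which are longer.

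In the stricter lists, 22 members had a start-site region in at least 1 Hox group without Hth (30.1%, interval 20.8 to 41.4%) against 25% of all genes, and 29 with Hth (39.7%, 29.3 to 51.2%) against 31.9%. Both shares of all genes lay inside the intervals. The members' regions were also narrow. Their median width was below that of regions at all start sites in 17 of 18 groups, with Antp the exception (520 against 437 bp). In Abd-B it was 488 bp against 574 bp, and in Dfd+Hth 531 bp against 707 bp. Width is not a measure of height, which the lists do not hold.

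The members formed a graded series, from genes bound in every group to genes bound in none. Regions of all 8 Hox proteins were found at 4 members without Hth, against 5.87% of all genes, and at 5 with Hth, against 4.15%. Among the members with any Hox region without Hth the median was 3 of 8 groups, against 4 for all genes with any, and 8 of the 45 (17.8%) had 6 or more, against 31.9% of such genes. With Hth the medians were 2 and 4 groups. At 12 members only 1 Hox protein had a region without Hth, and this was Abd-B at 8 of them (mRpL21, mRpL37, mRpL43, mRpS17, mRpL48, mRpL9, mRpS25 and mRpL54), Dfd at 2 (mRpS22 and mRpS10) and Scr at 2 (mRpS26 and mRpL14). The 12 are 26.7% of the members with any region, against 21.2% of all genes with any, and Abd-B alone made up 19.5% of the members it held against 17.5% of the genes it held. Abd-B had a region at every member that Lab, Pb, Antp, Ubx or Abd-A held, at 26 of the 28 that Dfd held and at 29 of the 31 that Scr held. Over all genes the same overlaps with Abd-B ran from 92.7 to 99.0%, so that this order was not particular to the members.

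**Figure D3:**
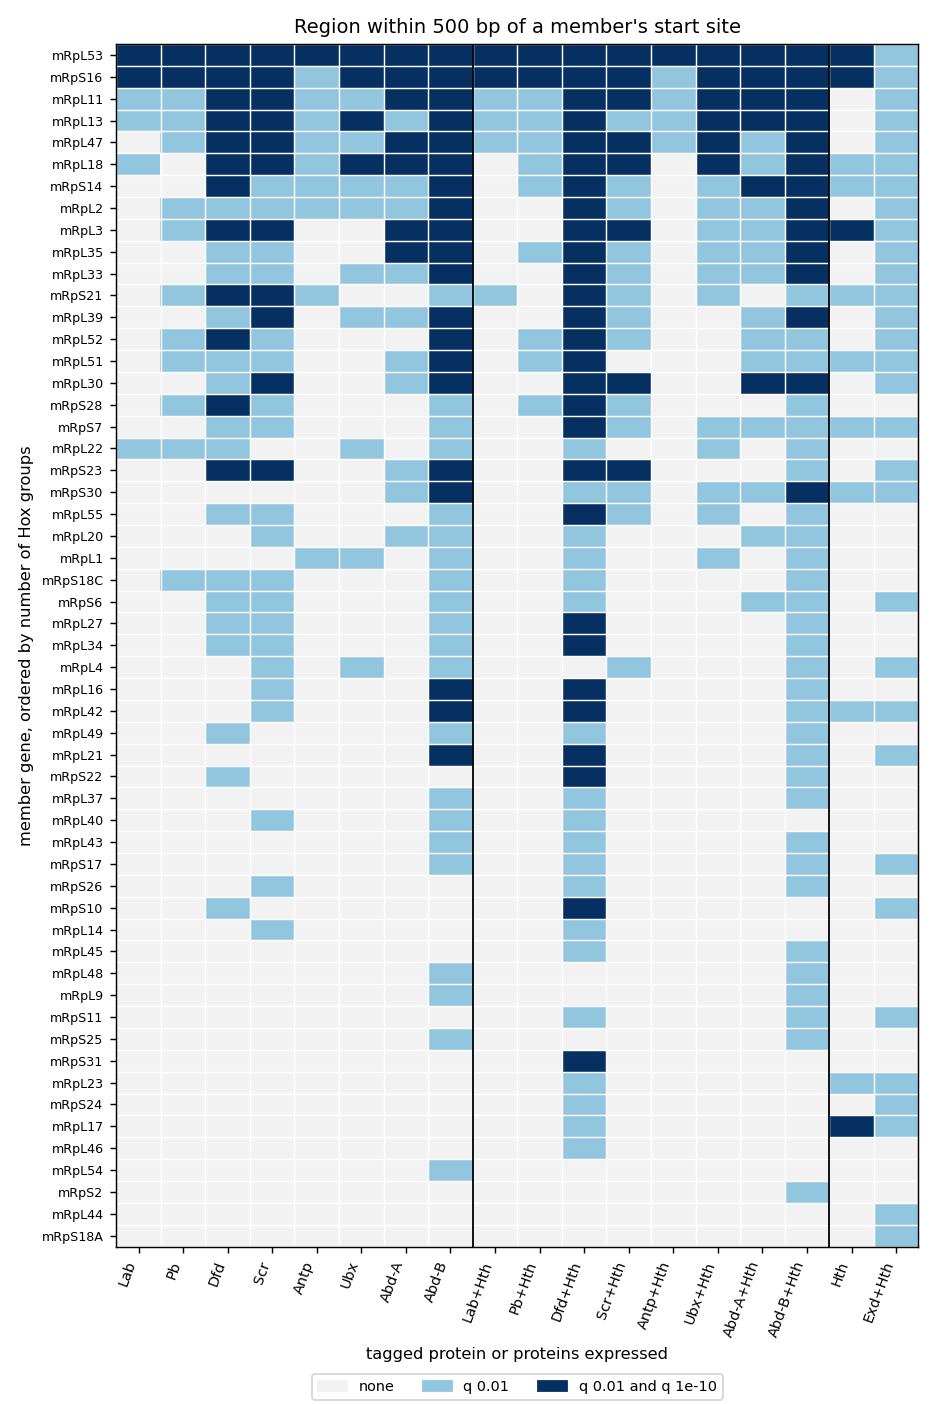
Start-site regions of the 55 members (rows, ordered by number of Hox groups) with a region in any of the 18 groups (columns), with light blue for q 0.01 alone and dark blue for q 0.01 and q 1e-10. The stricter list of Exd+Hth was not used here. The fullest columns are those of Dfd+Hth (47 members), Abd-B+Hth (44) and Abd-B (41), and mRpL53, mRpS16, mRpL11 and mRpL13 are filled in all 16 Hox groups.

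At the top of the order stood 4 members with a start-site region in all 16 Hox groups. mRpL53, a large-subunit protein (arm 2R), had one in all 16 strict lists too, and in Hth and Exd+Hth. The regions were 349 to 821 bp wide and covered its start site in all 16, but their centre was nearest to mRpL53 in only 2. The gene lies inside AGO1, which encodes an Argonaute protein of the microRNA pathway, and CG33155. mRpS16 (2R), a small-subunit protein with a bacterial counterpart, was present in 14 of 16 strict lists, absent there from Antp and Antp+Hth. Its regions were up to 2920 bp wide with a median centre 1105.5 bp upstream, toward cg, the gene of the transcription factor Combgap, whose start site is 97 bp away. The centre of its region was nearest to the member in 0 of the 16.

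mRpL11 (3R), whose bacterial counterpart forms the base of the ribosomal stalk, was in 9 of 16 strict lists. Its 16 regions had their centres 212 to 372 bp upstream, beyond the nearest start site of HtrA2, a mitochondrial protease gene. Of the 16 regions, 7 reached the mRpL11 start site. mRpL13 (2L), another large-subunit protein, was in 8 of 16 strict lists. All 16 of its regions covered the start site it shares with CG10602, with centres between 100 bp upstream and 71 bp downstream. mRpL11 and mRpL13 were each bound by Exd+Hth and not by Hth alone.

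mRpL47 (3R), the counterpart of bacterial L29, had regions in 7 groups without Hth (all but Lab) and in all 8 with it, and in 8 of 16 strict lists. The neighbouring CG8176 starts 99 bp away. mRpL18 (2R), which starts 20 bp from Taz, the gene of the cardiolipin enzyme tafazzin, had 7 without Hth (all but Pb), 6 with Hth (all but Lab and Antp), and 9 of 16 strict. mRpS14 (X), 21 bp from Naa15-16, had 6 and 6, lacking Lab and Pb without Hth and Lab and Antp with it, and 5 strict. mRpL2 (3L), whose bacterial counterpart lies at the peptidyl transferase centre, had 7 without Hth (all but Lab), 5 with Hth (Dfd, Scr, Ubx, Abd-A and Abd-B) and 3 strict, and its neighbour FoxK starts 64 bp away. All of these 4 were bound in Exd+Hth, and mRpL18 and mRpS14 also in Hth.

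The next 4 members each had regions in 10 of 16 Hox groups. mRpL3 (X), also a protein of the peptidyl transferase centre in bacteria, had Pb, Dfd, Scr, Abd-A and Abd-B without Hth, and Dfd, Scr, Ubx, Abd-A and Abd-B with Hth, 7 of them strict. Its nearest neighbour, Graf, starts 515 bp away, so it counted among the members with no close neighbour. mRpL35 (3R) had Dfd, Scr, Abd-A and Abd-B without Hth and these 4 plus Pb and Ubx with it. mRpL33 (X) had Dfd, Scr, Ubx, Abd-A and Abd-B in both conditions. mRpS21 (3R) had Pb, Dfd, Scr, Antp and Abd-B without Hth and Lab, Dfd, Scr, Ubx and Abd-B with it. Dfd, Scr and Abd-B were thus common to all 4 genes in both conditions.

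At the other end, 18 members had no start-site region in any of the 18 groups. The other 55 (75.3%) compare with 52.9% of all genes and 35.8% of genes of like length that had one. The 18 without one were mRpL10, mRpL12, mRpL15, mRpL19, mRpL24, mRpL28, mRpL32, mRpL36, mRpL38, mRpL41, mRpL50, mRpS5, mRpS9, mRpS18B, mRpS29, mRpS33, mRpS34 and mRpS35. Among them are both proteins of the stalk that recruits translation factors in bacteria (mRpL10 and mRpL12) and mRpS29, the GTP-binding protein known as DAP3 in humans. Of these 18, 14 had no region within 1 kb of the gene body either, where 59 members (80.8%) had one against 66.6% of all genes. A further 2 members, mRpL44 and mRpS18A, had one in Exd+Hth alone. By subunit, 31 of 47 large-subunit and 14 of 26 small-subunit genes had a Hox region at the start site without Hth, and 34 and 18 with Hth.

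Expressing Hth with the Hox protein went with opposite shifts in different proteins. For Dfd, 19 members had a region with Hth that they lacked without it and none the reverse, a difference of 26.0 percentage points against 12.8 for all genes. The 19 included mRpS30, mRpL45, mRpS11, mRpL16, mRpL42, mRpL21, mRpL20 and mRpL1. In the strict lists the Dfd count was 12 without and 28 with Hth, a difference of 21.9 points against 14.8 for all genes. The study reports more mapped reads for both Dfd+Hth libraries than for either Dfd library, so depth cannot be told apart from Hth here. For Scr, 11 members had a region only without Hth, mRpL51, mRpL20, mRpS18C and mRpS6 among them, and 1 only with it (mRpS30). The difference was -13.7 points against -3.97 for all genes. Of these 11, mRpL20, mRpL16, mRpL42, mRpL40, mRpS26 and mRpL14 are also in the list of 19 for Dfd. The strict lists of Scr held 11 members without and 8 with Hth, a smaller difference of -4.11 points against -1.63 for all genes. Both Scr+Hth libraries have fewer mapped reads in the study than either Scr library.

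For Antp, 5 members had a region only without Hth (mRpL18, mRpS14, mRpL2, mRpS21 and mRpL1), a difference of -6.85 points against -7.15 for all genes. For Ubx, 6 had one only with Hth and 2 only without, a difference of 5.48 points against 5.53. For Abd-B, 5 had one only with Hth (mRpS22, mRpS26, mRpL45, mRpS11 and mRpS2) and 2 only without, a difference of 4.11 points against -3.13 for all genes, while the strict lists of Abd-B held 20 members without and 14 with Hth, a difference of -8.22 points against -3.24 for all genes. Abd-A differed by 2.74 points against 1.58, Pb by -2.74 against -2.32, and Lab held 6 members in both, 4 of them the same. In Antp, Ubx, Abd-A, Pb and Lab the members' difference lay within 2 points of that of all genes, and in Dfd, Scr and Abd-B it lay farther away. Each protein has 1 list per condition, so these shifts have no replicate error, and depth or enrichment of the libraries cannot be told apart from Hth.

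**Figure D4:**
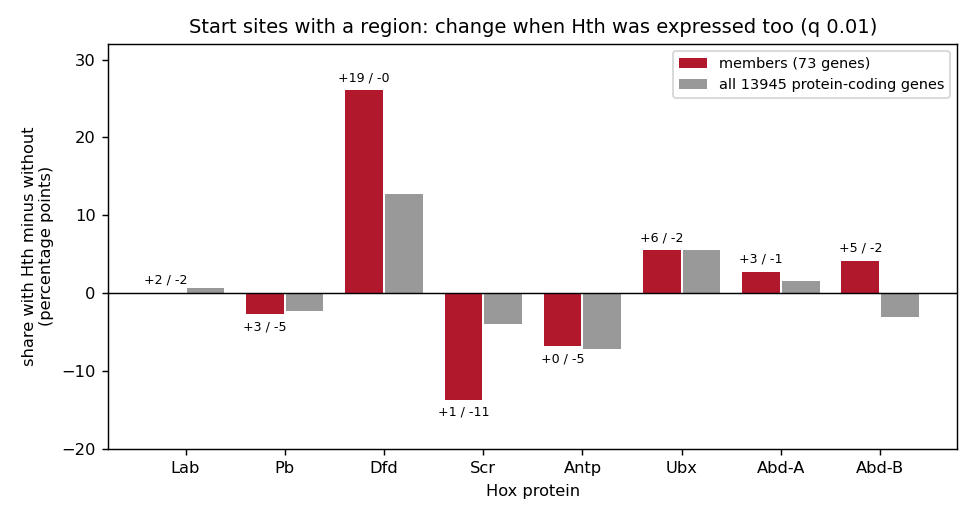
Difference in the share of genes with a start-site region when Hth was expressed too (y axis, percentage points) for each Hox protein (x axis), in the 73 members (red) and in all 13945 protein-coding genes (grey). The numbers at the red bars are members with a region only with Hth (+) and only without it (-), which are 19 and 0 for Dfd and 1 and 11 for Scr.

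Over the 8 proteins together, 20 members had a region in more groups with Hth, 12 in fewer and 41 in as many. An exact sign-flip permutation test over the 8 proteins (two-sided, all sign patterns, Benjamini-Hochberg adjustment over 13945 genes) called 0 genes, or 0% of those tested. At an unadjusted p under 0.05 there were 3 genes and no member, and the smallest p that the test can give is 0.00781. An adjusted p under 0.05 would have needed 2179 genes at that smallest p, so the count of 0 was set by the design and does not show that binding was alike. The largest difference among members was at mRpS30, with Abd-A and Abd-B without Hth and these plus Dfd, Scr and Ubx with it (exact permutation p = 0.25, adjusted p = 1). The human counterpart of mRpS30 is a protein of the large subunit in spite of its name. mRpL35 (4 to 6 groups), mRpS7 (3 to 5), mRpL45 and mRpS11 (both 0 to 2) followed with equal differences, where mRpS7 is a protein of the small subunit's head in bacteria. The lowest differences were at mRpL2 (7 to 5), mRpL22 (5 to 3) and mRpS18C (4 to 2), where the bacterial counterpart of mRpL22 lines the exit tunnel. A further 9 members, mRpL18 (7 to 6) among them, had 1 group fewer. None of these passed the test.

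Motifs were sought in the promoters of all protein-coding genes, from 250 bp before to 50 bp after the 5′ end of the gene model, on both strands. The palindromic E-box CAGCTG was in 40 of 73 member promoters (54.8%, interval 43.4 to 65.7%) against 17.7% of all promoters. It was in 24 of the 45 members with a Hox region without Hth (53.3%) and in 16 of the 28 with none (57.1%), while over all genes these shares were 21.9% and 14.3%. With a close neighbour it was in 30 of 54 members (55.6%) and with none in 10 of 19 (52.6%), against 23.9% and 14.6% of other genes. Of its 45 sites in member promoters, 36 began within 50 bp of the start site (80%) against 49.7% of the sites in all promoters, and 19 in the first 25 transcribed bases. The motif is known from promoters of housekeeping genes. Of the members whose upstream stretch is printed above, 3 hold it near the start site. It is shown here in a window of 30 bases around the motif, which is in capitals, because it was the most frequent in members of the 11 motifs searched.
mRpL11, chr3R:14511821-14511850, plus strand: cagcaataccatCAGCTGttgctgcttctt
mRpL47, chr3R:9515873-9515902, minus strand: ttgttattgcttCAGCTGttttgttcggtc
mRpL2, chr3L:11120845-11120874, plus strand: aacgccgcgtaaCAGCTGttttcagccgca
Its first base lies 5 bases before the start site in mRpL11, and 18 and 10 bases after it in mRpL47 and mRpL2.

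**Figure D5:**
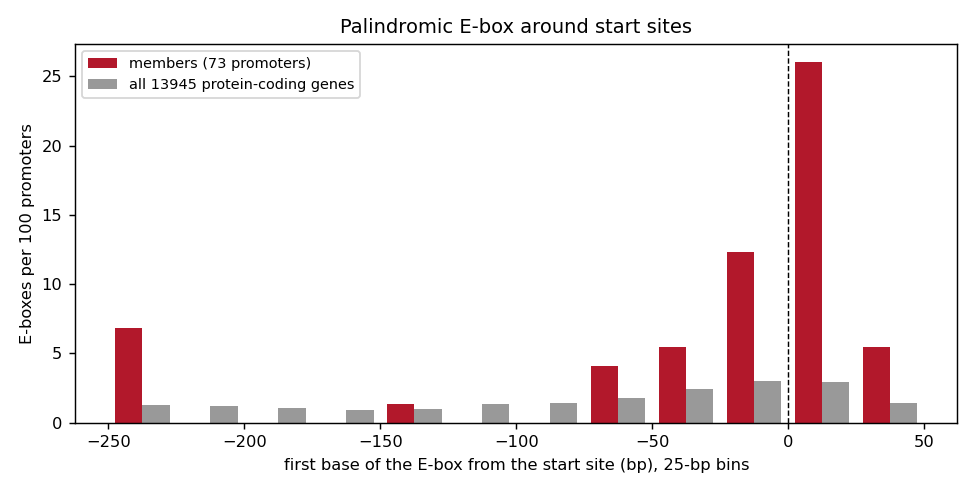
Number of palindromic E-boxes per 100 promoters (y axis) by the position of their first base from the start site in bins of 25 bp (x axis), for the 73 member promoters (red) and all 13945 promoters (grey). The members' sites gather around the start site, with 36 of 45 within 50 bp of it.

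Of the other promoter motifs, the DRE TATCGATA, bound by DREF at housekeeping genes, was in 15 members (20.5%) against 9.36% of all promoters. It was in 8 of the 45 members with a Hox region without Hth (17.8%) and in 7 of the 28 with none (25%), against 15.02% and 4.91% over all genes. The core of Motif 1, GGTCACACT, was in 8 (11.0%) against 6.05%, and all 8 were among the 45 members with a Hox region without Hth. Over all genes it was in 10.0% of promoters with a region and 2.94% of those with none. TATAAA was in 34 members (46.6%) against 45.8% of all promoters, but in 14 of the 45 with a region (31.1%) and 20 of the 28 with none (71.4%). Over all genes these 2 shares were 42.6% and 48.3%. GAGAGAG, bound by GAGA factor, was in 1 member (1.37%) against 5.87%.

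For the motifs of the tagged proteins, the share of all promoters lay inside the Wilson interval of the members. The Exd-Hox site TGATTNAT was in 4 members (5.48%) against 7.82% of all promoters, and the Hth site TGACAG in 4 (5.48%) against 11.8%. A Hox core of the TAAT form (TTAATTA or TTAATGA) was in 12 (16.4%) against 19.1%. One of the TTAT form (TTTAT followed by TA, by TG, by GA or by GG, all of which share letters with TATAAA) was in 34 (46.6%, interval 35.6 to 57.9%) against 39.0%. In the central 200 bp of the regions at member start sites, the Exd-Hox site was in 0 of 45 windows of Abd-B, 1 of 52 of Dfd+Hth and 0 of 46 of Abd-B+Hth, against 4.44, 5.95 and 5.07% of all start-site regions. These reference shares all lay inside the members' Wilson intervals, whose upper limits were 7.87, 10.1 and 7.71%. In Exd+Hth the site was in 2 of 31 windows (6.45%) against 5.01%. The TTAT form was in 17 of 45 Abd-B windows (37.8%, interval 25.1 to 52.4%) against 25.2% of its start-site regions and 38.3% of its other regions. These are matches of letters, and no match says nothing of whether a protein bound.

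Other gene groups of related function gave a scale for these values, with no test. tko had start-site regions in 7 Hox groups without Hth and 5 with it, and bonsai in 1 and 2. A list of 36 genes covered mitochondrial translation, transcription, DNA replication and related steps. Of these, 18 had a region in at least 1 Hox group without Hth (50%), with a mean share of 20.1% ± 14.3 over the 8 proteins. Of 80 genes of the respiratory chain and ATP synthase, 42 did (52.5%), with a mean of 20.5% ± 13.6. Of 92 cytosolic ribosomal protein genes, 67 did (72.8%), with a mean of 34.5% ± 18.4, above the 61.6% and 27.2% of the members. A close neighbour was found at 40.2% of these 92 genes, and its part in the difference was not tested. The E-box CAGCTG was in 47.2% of the promoters of the 36 genes of mitochondrial translation, transcription and replication. It was in 23.8% of those of the respiratory chain and 9.78% of those of cytosolic ribosomal proteins. The lists were not matched for length (median 909 bp for members, 1091.5 bp for the respiratory chain and 1315 bp for cytosolic ribosomal proteins). The respiratory chain list also holds many paralogs whose symbols add an L to that of another gene. Most of these had no start-site region in any Hox group, so the shares of that list depend on how it was drawn. At q 0.01, with the lists as drawn, the members' mean over the Hox groups lay between those of the respiratory chain and the cytosolic ribosome. This order did not hold throughout. In the strict lists the mean without Hth was 10.1% for members and 7.61% for cytosolic ribosomal protein genes, and 11.5% and 9.51% with Hth. In Hth alone the members' share of 16.4% lay below the 31.25% of the respiratory chain and the 39.1% of the cytosolic ribosome.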

How the data were processed

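Per the labels and the study's methods, the authors aligned the reads with Bowtie 1.2.2 to dm6 and ran MACS2 2.1.1.20160309 separately on every library, with input as the control. They deposited, for each group, merged regions that overlapped between its libraries, at q 0.01 and q 1e-10, after removing exons carried by the plasmids. The deposited columns used here are the start and end of each region. Exd+Hth at q 1e-10 was not used here.

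Of 54 samples, 36 are ChIP and 18 input libraries. Genes were those of Ensembl release 115, and sequences those of RefSeq Release 6. No region ended beyond its arm. A gene was counted as bound when a region overlapped the window by at least 1 bp. Genes of like length are the other protein-coding genes, weighted to the members' 10 length deciles. Overlaps and the permutation test were tested on simulated data (Python 3.11.15, numpy 2.4.6). Members with the most groups, the largest differences with Hth and no region were named. The members and lists were chosen with earlier results of these data known.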

Additional observations from a re-analysis of the deposited data

How the results depend on the processing

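No paired analysis was possible because each deposited list combines both libraries, so that replicate numbers pair nothing and no library could be left out. The test of Hth pairs the lists by protein instead. Of 132 recalculations of the shares, differences and member counts, 102 kept the direction and stayed within 1.5 times the value reported. Among them were all 64 that left out 1 Hox protein. Leaving out 1 of 8 proteins can move such a mean only a little, so these 64 say little of stability. The 30 recalculations that did not stay within these limits are given here. The strict q of 1e-10 gave mean shares of 10.1% without and 11.5% with Hth at start sites, and 11.1% and 12.3% at gene bodies. The differences from genes of like length then were 6.75 and 6.93 points at start sites and 4.75 and 4.13 points at gene bodies, and 22 and 29 members had a start-site region. Without the members that have another start site within 500 bp, the mean shares were 9.87% in both conditions at start sites and 10.5% and 13.2% at gene bodies, and 7 and 8 members had a start-site region. The differences from all genes of like length then turned negative, to -3.01 and -3.65 points at start sites and -8.95 and -7.32 points at gene bodies. Those genes of like length include some with a close neighbour. Extending the body by 5 kb gave 52.4% and 56.2%. Without length matching the differences were 4.78 and 6.17 points at start sites, and -1.20 and -0.0305 points at gene bodies. Matching length and neighbour, an alternative added after the data were seen, gave 9.06 and 10.4 points at start sites and 5.56 and 6.98 points at gene bodies. The test of Hth could hardly call a gene under any setting, so its 13 recalculations, all with 0 genes called, say nothing of stability.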

Other observations

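A few members were chosen here after their values were seen. For mRpL23 and mRpS31, regions lay close by in more Hox groups than at the start site. mRpL23, a protein whose bacterial counterpart sits at the exit of the peptide tunnel, had a region within 1 kb of its body in 12 of 16 Hox groups but at its start site only in Dfd+Hth, besides Hth and Exd+Hth. mRpS31 had a region within 1 kb in 7 Hox groups and at its start site only in Dfd+Hth, where it was also in the strict list. mRpL17 had regions at its start site in Hth, where it was in the strict list, in Exd+Hth and in Dfd+Hth, and in no Hox group without Hth.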
